A study of Mus musculus with 4 samples.

Results

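Release of transmitter from a nerve terminal was followed through 10 genes whose proteins build, mark or prime the synaptic vesicle: Snap25, Syt1, Stx1a, Vamp2, Syp, Syn1, Syn2, Sv2b, Rims1 and Unc13a. The genes were picked by symbol from the 46983 gene rows of a single-nucleus RNA sequencing experiment on mouse brain after stroke, and all 10 were present. They are described by neuron class, in the RNA that floats free of nuclei, and by library. The question put to them was how far the RNA for the release machinery differs between kinds of neuron and between control and injured brain.

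The release machinery works in steps. Synaptic vesicles carry the SNARE protein Vamp2, the calcium sensor Syt1, synaptophysin (Syp) and the transporter-like protein Sv2b, and the synapsins Syn1 and Syn2 tether vesicles in a reserve. Rims1 docks vesicles at the active zone, Unc13a primes them, and Vamp2 then forms a complex with Stx1a and Snap25 of the plasma membrane that drives fusion when calcium reaches Syt1. These genes are standard markers of neurons, and their proteins work in axon terminals, far from the nucleus in which the RNA was counted here.

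The samples were 4 libraries of nuclei from male C57Black/6 mice 3 months old. They came from animals labelled sham control (the control) and from animals killed 1, 3 or 7 days after MCAO. The study's methods call the control tissue intact and refer to an earlier study for sham surgery. In this stroke model the middle cerebral artery is closed for good, with no reperfusion. Each library was made from 3 pooled forebrain hemispheres, so each group holds 1 library, no difference between libraries has a replicate check, and no test is given for it. None is given between classes either, since the classes were clustered from the same nuclei, and their differences are shown by the ratio within each of the 4 libraries. The mice carried no transgene named in the labels, and the surgical description names intact cortex as the control tissue whereas the design text names forebrain hemispheres throughout. Nuclei per time point as the study counts them could be paired with the deposited libraries only with day 3 and day 7 exchanged. In microglia-like nuclei, 7 genes of reactive microglia (Gpnmb, Sash1, Lgals3, Spp1, Igf1, Hif1a and Abca1) summed to 449 CPM in the sham, 950.2 CPM in the day 1, 2310 CPM in the day 3 and 1716 CPM in the day 7 library as labelled. The list comes from the study, which chose it on these samples. Groups follow the deposited labels throughout, so each statement on day 3 or day 7 rests on them.

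The libraries held 23285489 to 42963698 unique molecular identifiers (UMIs, one per captured RNA molecule), and 1019 to 3094 nuclei were kept from each. The day 1 library stood apart in depth, with a median of 10945 UMIs per nucleus against 5412 to 6966 in the other 3 libraries. Between 1 and 7 called barcodes of a library also occurred in another library. Nuclei fell into 33 clusters, named from marker genes with the 10 genes left out of the clustering. Glutamatergic-like nuclei (9 clusters) numbered 560, 303, 934 and 464 in sham, day 1, day 3 and day 7, striatal projection neuron-like nuclei (1 cluster) 244, 83, 273 and 138, and interneuron-like nuclei (3 clusters named for Erbb4, Vip and Sst) 109, 55, 142 and 88. Slc17a6 neurons numbered 24 to 57 per library and Baiap3 neurons 117 to 273. The former are named for Slc17a6, a vesicular glutamate transporter of subcortical neurons, from the marker list of that class (their lead marker was Synpo2), and the latter for their lead marker Baiap3, a relative of Unc13a. Oligodendrocyte-like nuclei, 161 to 438 per library, served as the non-neuronal comparison for the release genes.

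Levels are in CPM, for which UMIs of a gene were divided by the UMI total of the class in that library and put on the usual CPM scale. Values in series are in the order sham, day 1, day 3, day 7. Ranges after a value are exact 95% intervals that cover counting error only. A ratio was called when it was at least 1.5 or at most 1/1.5 and its interval left out 1, and a difference between classes when this held in each of the 4 libraries. Among the markers used for naming, Drd2 and Drd1, the dopamine receptors of striatal projection neurons, were at 214 to 249.9 and 45.6 to 64.3 CPM in that class. Slc17a7, the cortical glutamate transporter, was at 235 to 263 CPM in glutamatergic-like nuclei. These genes and Slc17a6 helped to name the classes, so their levels describe the classes and do not check the names. Slc17a6 was at 129.7 to 249 CPM in the Slc17a6 neurons against 6.66 to 11.48 CPM in glutamatergic-like nuclei.

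The promoters are shown first for the genes whose level differed most between neuron classes, Stx1a and Sv2b, and for the pair of genes that carry part of the binding site of REST, a repressor of neuronal genes. The sequences are RefSeq promoters of GRCm38.p6, from 250 bases before to 50 bases after the annotated start, printed 5′ to 3′ on the strand of the gene, with capitals for any motif letters. The Syn1 promoter lies at chrX:20920869-20921168 on the minus strand, that of Unc13a at chr8:71671708-71672007 on the minus strand, the first of 4 for Sv2b at chr7:75309213-75309512 on the minus strand, and that of Stx1a at chr5:135023232-135023531 on the plus strand.
Syn1: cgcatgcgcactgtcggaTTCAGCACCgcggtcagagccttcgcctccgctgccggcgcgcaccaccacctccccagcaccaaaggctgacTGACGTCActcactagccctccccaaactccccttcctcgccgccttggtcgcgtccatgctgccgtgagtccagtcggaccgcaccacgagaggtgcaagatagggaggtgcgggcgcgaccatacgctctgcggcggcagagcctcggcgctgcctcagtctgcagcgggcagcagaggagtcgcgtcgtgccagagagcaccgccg
Unc13a: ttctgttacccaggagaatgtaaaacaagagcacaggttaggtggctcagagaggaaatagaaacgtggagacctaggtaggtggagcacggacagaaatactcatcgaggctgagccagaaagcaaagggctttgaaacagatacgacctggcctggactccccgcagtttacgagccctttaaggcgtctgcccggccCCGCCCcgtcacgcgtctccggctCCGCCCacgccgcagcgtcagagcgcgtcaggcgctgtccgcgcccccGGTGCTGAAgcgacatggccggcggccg
Sv2b: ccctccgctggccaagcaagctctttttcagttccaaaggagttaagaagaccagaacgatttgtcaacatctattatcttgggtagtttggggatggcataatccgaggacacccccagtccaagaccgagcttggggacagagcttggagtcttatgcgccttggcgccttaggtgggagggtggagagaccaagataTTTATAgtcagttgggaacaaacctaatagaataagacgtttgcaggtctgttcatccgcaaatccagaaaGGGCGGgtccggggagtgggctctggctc
Stx1a: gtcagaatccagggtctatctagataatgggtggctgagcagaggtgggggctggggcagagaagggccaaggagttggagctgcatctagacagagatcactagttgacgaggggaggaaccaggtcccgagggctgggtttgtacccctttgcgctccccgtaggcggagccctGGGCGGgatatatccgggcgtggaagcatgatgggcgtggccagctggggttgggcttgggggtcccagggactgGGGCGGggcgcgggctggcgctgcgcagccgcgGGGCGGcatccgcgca

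The search covered 4 motifs on both strands, and matches of different motifs did not overlap in these windows. TTCAGCACC, the left part of the REST site, was found in 0.371% of 32851 mouse promoters of this length and among the members in Syn1 and Unc13a, in Unc13a as its reverse complement. The cyclic AMP response element TGACGTCA, present in 1.79% of promoters, was found in Syn1 alone among the members. The GC box GGGCGG occurred in 35.7% of all promoters and in 7 of 13 member promoters, of 7 genes (Rims1, Stx1a, Sv2b, Syn2, Syp, Syt1 and Unc13a). The TATA box TATAAA occurred in 13.6% of all promoters and in 2 of the 13, both of Sv2b. The table held 13 promoters for 8 of the 10 genes, and Snap25 and Vamp2 had no entry. The GC content of the 13 ranged from 35.3% to 69.3%, around a median of 52.7% for all promoters.

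Free RNA enters every level below, and its part was estimated in 3 ways. With the same number of free UMIs in every droplet, the median total of barcodes of 100 to 1000 UMIs, it made up 2.33 to 3.67% of the UMIs of glutamatergic-like nuclei and 11.55 to 15.2% of those of oligodendrocyte-like nuclei. Barcodes ranked 10000 to 50000 gave 232, 5, 355 and 84 free UMIs per droplet in place of 307, 433, 371 and 322, or 0.0269 to 3.51% and 0.135 to 14.6%, with day 1 lowest. In proportion to UMIs, at the share at which all UMIs of the 10 genes in oligodendrocyte-like nuclei would be free RNA, it was 22.7, 21.3, 30.8 and 16.7% in every class. The last estimate takes none of these UMIs to be the oligodendrocyte-like nuclei's own.

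All 10 genes were detected in every neuron class, and glutamatergic-like nuclei had the highest median level for 7 of them. Snap25, the fusion protein of the plasma membrane, was at 1163, 1210.5, 1141 and 1065 CPM in glutamatergic-like nuclei. It was at 678, 688, 662 and 649 CPM in striatal projection neuron-like nuclei and at 703, 726, 685 and 703 CPM in interneuron-like nuclei. Every glutamatergic-like value lay above every value of the other 4 neuron classes, whereas the interneuron-like and striatal projection neuron-like ranges overlapped. Rims1, the docking scaffold, was at 1937, 1644, 1881 and 1700.5 CPM in glutamatergic-like nuclei, a range that overlapped the 1569 to 2029 CPM of the Slc17a6 neurons. It fell into steps below that, with 1321 to 1582 CPM in interneuron-like nuclei, 1044 to 1148 CPM in Baiap3 neurons and 715 to 882 CPM in striatal projection neuron-like nuclei, without overlap between these 3.

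The vesicle protein gene Sv2b separated the neuron classes most. It was at 432, 489, 563 and 505 CPM in glutamatergic-like nuclei and at 187 to 306 CPM in Slc17a6 neurons. Striatal projection neuron-like nuclei had 142, 122, 159 and 183 CPM, Baiap3 neurons 70.7 to 117 CPM, and interneuron-like nuclei 52.8, 49.0, 46.0 and 42.3 CPM. No 2 of these 5 classes overlapped. The interneuron-like level overlapped that of oligodendrocyte-like nuclei, which was 53.8, 65.6, 75.0 and 38.0 CPM. Free RNA would bring 6.57 to 12.7 CPM of Sv2b to interneuron-like nuclei at the same number per droplet and 43.8 to 85.5 CPM in proportion, so the level was above the first estimate in 4 libraries and above the second in 1. After each nucleus was thinned to 1000 UMIs, Sv2b was seen in 33.3 to 39.2% of glutamatergic-like, 6.02 to 15.4% of striatal projection neuron-like, 1.82 to 3.67% of interneuron-like and 3.11 to 5.59% of oligodendrocyte-like nuclei. Unthinned, the shares were 89.7 to 94.4%, 57.0 to 66.3%, 15.9 to 23.6% and 7.45 to 14.3%, at median depths of 8931 to 16519 UMIs in glutamatergic-like and 1867 to 3094 UMIs in oligodendrocyte-like nuclei.

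Stx1a, the syntaxin of the plasma membrane, was also highest in glutamatergic-like nuclei, but of the neuron classes it was lowest in striatal projection neuron-like nuclei. Its level was 115, 92.4, 95.2 and 92.4 CPM in glutamatergic-like nuclei, 33.3 to 63.6 CPM in Slc17a6 neurons and 27.6 to 43.9 CPM in Baiap3 neurons. Interneuron-like nuclei had 22.9, 29.9, 28.6 and 22.8 CPM and striatal projection neuron-like nuclei 19.4, 19.9, 13.6 and 18.3 CPM, from 21 to 47 UMIs per library. These last levels lay within or under the 21.1 to 31.9 CPM of oligodendrocyte-like nuclei. In striatal projection neuron-like nuclei free RNA would bring 2.03 to 2.76 CPM of Stx1a at the same number per droplet and 14.04 to 20.97 CPM in proportion. The striatal projection neuron-like level was above the first estimate in 4 libraries and above the second in 3, and the interneuron-like level was above both in 4. In nuclei thinned to 1000 UMIs, Stx1a was seen in 7.71 to 10.0% of glutamatergic-like, 1.45 to 4.82% of striatal projection neuron-like and 1.55 to 2.48% of oligodendrocyte-like nuclei (unthinned 55.1 to 76.2%, 10.6 to 21.7% and 4.71 to 7.45%).

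The calcium sensor Syt1 was at 4585, 3754, 4428 and 3689 CPM in glutamatergic-like nuclei, above all values of the other classes. The other 4 classes lay between 2257 and 3651 CPM, and each overlapped the next in order. Unc13a, the priming factor, ranged from 118 to 143 CPM in glutamatergic-like nuclei and from 74.5 to 137 CPM in the other 4 classes, with overlap between all neighbours. Both genes were thus spread more evenly over neurons than Sv2b or Stx1a.

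The genes of the vesicle surface and reserve differed in which class was highest. Syn2 was highest in interneuron-like nuclei, at 550.1, 660.4, 523 and 570.1 CPM, above the 383 to 468 CPM of glutamatergic-like nuclei without overlap. Syn1 overlapped between 4 neuron classes, at 142 to 197 CPM, and was lower without overlap in striatal projection neuron-like nuclei, at 102 to 120 CPM. Syp was also lower without overlap in striatal projection neuron-like nuclei than in the other 4 classes, which had 101 to 145 CPM. Among those, Baiap3 neurons, at 127 to 145 CPM, lay above glutamatergic-like nuclei, at 106 to 117 CPM, without overlap. Striatal projection neuron-like nuclei had 61.8, 44.1, 56.8 and 58.2 CPM of Syp. That last level overlapped the 52.1 to 71.3 CPM of oligodendrocyte-like nuclei. With free RNA subtracted at the same number per droplet, from barcodes of 100 to 1000 UMIs, Syp was at 0.333 to 0.480 of the glutamatergic-like level in striatal projection neuron-like and at 0.0506 to 0.264 in oligodendrocyte-like nuclei, without overlap. With barcodes ranked 10000 to 50000 taken for free RNA instead, the ranges were 0.397 to 0.532 and 0.160 to 0.474 and overlapped, and the proportional estimate, 69.5 to 102 CPM, exceeded both levels in all 4 libraries.

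Vamp2, the vesicle SNARE, was the exception among the 10 genes. Its level was 51.7, 47.5, 46.2 and 35.2 CPM in glutamatergic-like nuclei and 26.9 to 54.6 CPM over all neuron classes, whose ranges overlapped except for Baiap3 neurons, at 48.1 to 54.6 CPM, and striatal projection neuron-like nuclei, at 36.6 to 47.0 CPM. Oligodendrocyte-like nuclei had more, at 76.3, 84.1, 89.0 and 60.5 CPM, and no further order among neurons was read. In glutamatergic-like nuclei free RNA would bring 6.84 to 8.47 CPM of Vamp2 at the same number per droplet and 45.1 to 71.1 CPM in proportion. The measured level was above the first estimate and under the second in all 4 libraries. Thinned to 1000 UMIs, it was seen in 3.66 to 4.82% of glutamatergic-like and 6.27 to 9.94% of oligodendrocyte-like nuclei (unthinned 33.6 to 54.8% and 14.9 to 27.3%).

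**Figure D1:**
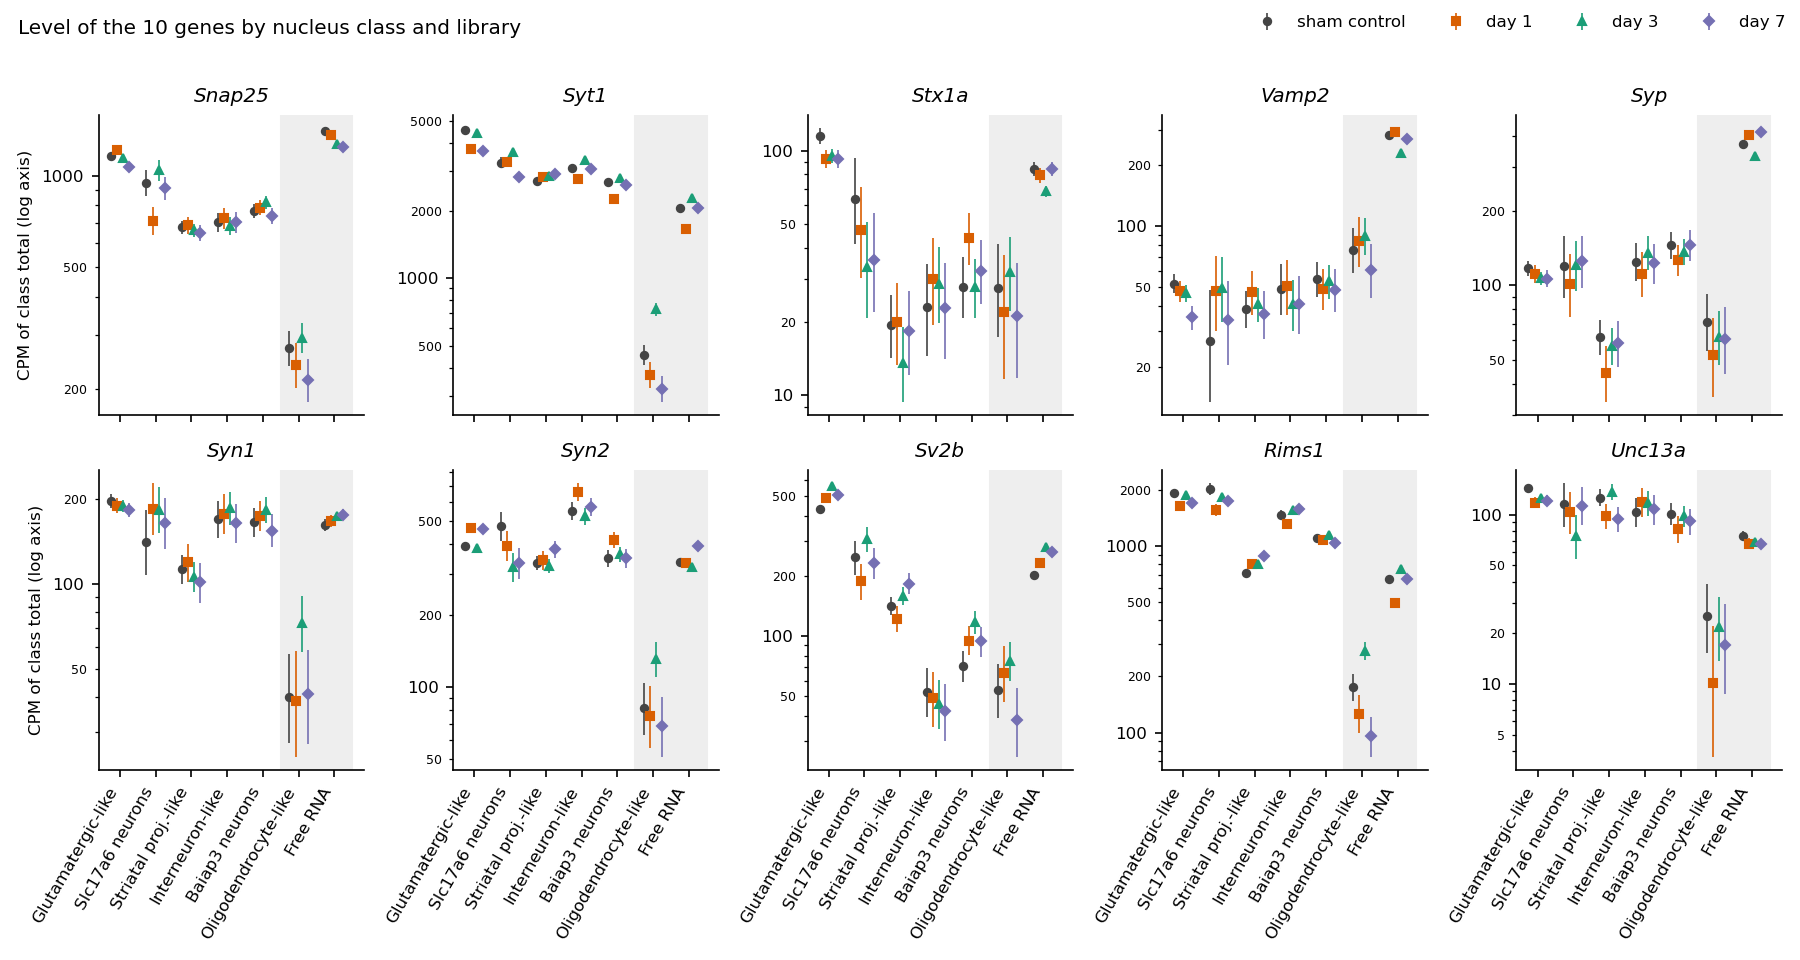
Level of each of the 10 genes in CPM (log axis, one panel per gene) in the neuron classes, oligodendrocyte-like nuclei and free RNA, 1 point per library with its exact 95% counting interval. Sv2b and Stx1a spread most between neuron classes, and Vamp2 lies lower in every neuron class than in free RNA, which held 231 to 293 CPM.

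Set against glutamatergic-like nuclei of the same library, 6 of the 10 genes were called lower in striatal projection neuron-like nuclei and none higher, where 9.21% of 12256 genes tested were called lower and 5.81% higher. The median ratio over the 4 libraries was 0.183 for Stx1a, 0.305 for Sv2b, 0.457 for Rims1, 0.531 for Syp, 0.567 for Syn1 and 0.582 for Snap25. Syn2 at 0.832, Unc13a at 0.859, Vamp2 at 0.936 and Syt1 at 0.696 were not called in all 4 libraries. In interneuron-like nuclei 3 genes were called lower, with 4.72% of all genes lower and 5.01% higher: Sv2b at a median of 0.0919, Stx1a at 0.273 and Snap25 at 0.602. Syn2 was 1.24 to 1.41 times the glutamatergic-like level and missed the fold limit.

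In Baiap3 neurons 3 genes were called lower (4.62% of all genes, 7.67% higher), with Sv2b at 0.190, Stx1a at 0.320 and Rims1 at 0.612 of the glutamatergic-like level. In Slc17a6 neurons 2 were called lower (4.22% of all genes, 4.25% higher), Stx1a at 0.450 and Sv2b at 0.501. Stx1a and Sv2b were therefore called lower in each of the 4 other neuron classes. Interneuron-like over striatal projection neuron-like nuclei gave 3 genes higher and 1 lower, against 10.7% and 7.46% of all genes. Syp was 2.24, Rims1 1.87 and Syn2 1.64 times as high in interneuron-like nuclei, and Sv2b was at 0.331. The same members were called against glutamatergic-like nuclei when free RNA was subtracted in equal number from every nucleus.

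Against glutamatergic-like nuclei, 9 of the 10 genes were called lower in oligodendrocyte-like nuclei, all but Vamp2, where 14.6% of all genes were lower and 16.1% higher. The ratios ran from 0.0836 for Rims1 and 0.0990 for Syt1 to 0.575 for Syp, and Vamp2 stood at 1.75. With free RNA subtracted at the median total of barcodes of 100 to 1000 UMIs, the ratio of Syp was 0.139 and that of Vamp2 1.25. Among glia, oligodendrocyte precursor-like nuclei held more of some members. Rims1 was at 724 to 1091 CPM there and Syn2 at 321 to 444 CPM, against 95.6 to 275 CPM and 68.9 to 131 CPM in oligodendrocyte-like nuclei, without overlap. Astrocyte-like nuclei had 258 to 341 CPM of Syn2.

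Levels of different genes were set side by side per length of gene body, since reads over introns were counted too. Whether counts primed at the 3′ end or within introns scale with that length was not tested. In glutamatergic-like nuclei the median over libraries was 16.7 CPM per kb for Snap25, 12.03 for Vamp2, 7.97 for Syt1 and 7.36 for Syp. The other 6 genes lay between 2.56 CPM per kb for Sv2b and 3.45 for Rims1. On that scale Vamp2, the lowest of the 10 in CPM, came next to Snap25, and Syt1 and Rims1, the highest in CPM, came to the third and the fifth place. The place of Vamp2 rests on a level that lay under the proportional free RNA estimate in all 4 libraries.

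Glutamatergic-like nuclei were not uniform. Over the 9 clusters, the mean of the 4 libraries for Stx1a ran from 32.7 CPM in the cluster named for Zbtb20 and 45.9 CPM in that named for Fezf2 to 158 CPM in that named for Rorb, a transcription factor of the middle cortical layers. Each cluster bears the name of its strongest gene from the fixed marker list. For the Zbtb20, Fezf2 and Cux2 clusters that gene was not among the 10 genes highest by fold, which Il16, Gm42705 and Nr4a2 headed, so no region or layer was read from these names. In the Zbtb20 cluster Stx1a was at 48.6, 42.04, 32.7 and 7.54 CPM and in the Rorb cluster at 155, 126, 168 and 182 CPM, without overlap. Syt1 was highest in the Cux2 cluster, at 5635 to 7365 CPM, and lowest by its mean in the Zbtb20 cluster, at 2921 to 3326 CPM, with single values under these on days 1 and 7 in the Tshz2 cluster, at 2751 and 2352 CPM. Rims1 was lowest in the Fezf2 cluster, at 800 to 1042 CPM, and Sv2b was highest in the same cluster by its mean of 565 CPM. Snap25 varied least, with cluster means between 917 and 1263 CPM. The 116 nuclei of the Zbtb20 cluster came to 5, 19, 48 and 44 per library, so its share of the class differed between libraries.

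Among interneuron-like clusters, Sv2b had cluster means of 49.1 CPM in the Erbb4 cluster, 54.8 CPM in the Vip cluster and 24.9 CPM in the Sst cluster, all under the lowest glutamatergic-like cluster mean of 289 CPM. Rims1 was at a mean of 2149 CPM in the Vip cluster against 1201 CPM and 1347 CPM in the Erbb4 and Sst clusters, and Syn2 lay between 532 and 664 CPM in all 3.

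**Figure D2:**
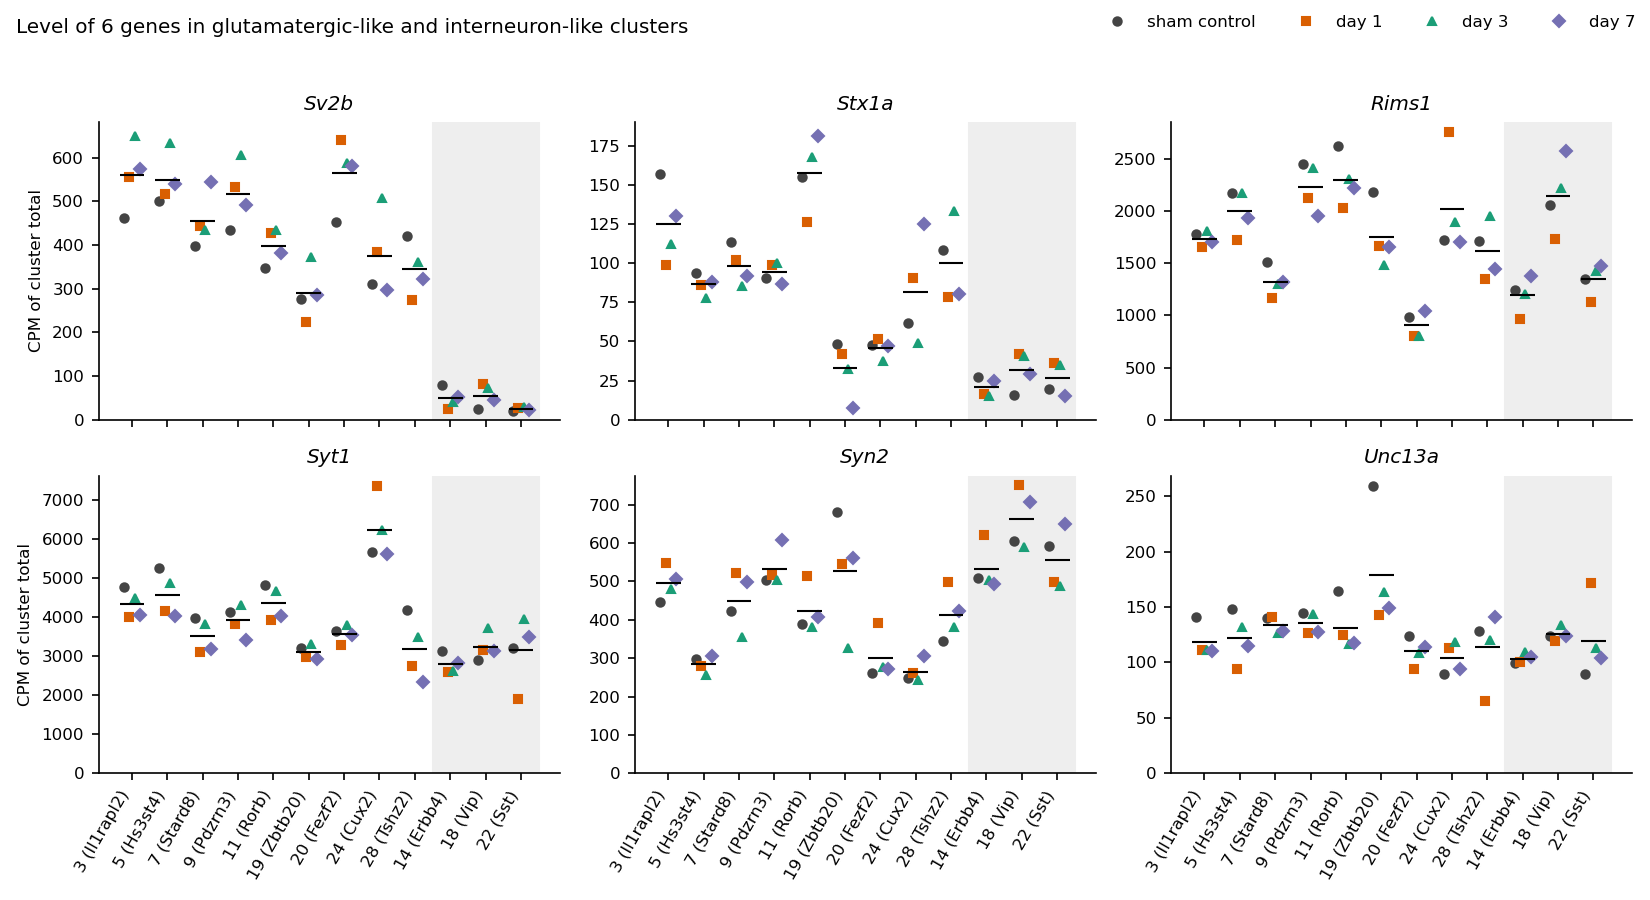
Level in CPM of 6 of the genes in the 9 glutamatergic-like and, shaded, the 3 interneuron-like clusters, named by their strongest gene from the fixed marker list, with 1 point per library and the mean of the 4 libraries as a line. The mean of Stx1a runs from 32.7 to 158 CPM over glutamatergic-like clusters, and that of Sv2b is 24.9 to 54.8 CPM in every interneuron-like cluster.

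Free RNA was taken as the sum of all barcodes of at most 1000 UMIs, which held 9788746 to 19357407 UMIs per library. It carried the 10 genes at other proportions than nuclei did. Vamp2 was at 282, 293, 231 and 271 CPM in free RNA, 5.00 to 7.70 times its glutamatergic-like level, and Syp at 371, 405, 332 and 417 CPM, 3.12 to 3.93 times. Both were higher in free RNA than in any nuclear class of the same library. Snap25, at 1407, 1362, 1267 and 1239 CPM, was 1.11 to 1.21 times its glutamatergic-like level and was not called. Rims1 at 669, 493, 750.3 and 667 CPM, Syt1 at 2050.3, 1648, 2278 and 2047 CPM, Sv2b at 203 to 277 CPM and Unc13a at 67.1 to 74.7 CPM were lower than in glutamatergic-like nuclei, with median ratios of 0.369, 0.481, 0.482 and 0.553.

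In all, 2 of the 10 genes were called higher in free RNA than in glutamatergic-like nuclei (36.7% of 15464 genes) and 4 lower (13% of genes). The median ratio of the 10 was 0.778, 0.785, 0.776 and 0.881, against 1.13, 1.10, 1.14 and 1.16 over all genes. In each library 3 of the 10 were above 1, whereas 54.5 to 57.8% of all genes were. With barcodes of at most 200 UMIs the count was 4, 3, 4 and 5. Stx1a then had ratios of 1.27 to 1.61 in place of 0.715 to 0.911, Syt1 0.248 to 0.352 in place of 0.439 to 0.555, and Rims1 0.174 to 0.294 in place of 0.30 to 0.399. Unc13a had 0.775 to 0.858 in place of 0.523 to 0.572, short of the fold limit, so its call as lower was lost. Against oligodendrocyte-like nuclei all 10 genes were called higher in free RNA, by 3.34 times for Stx1a to 6.14 times for Syp at the median, where 25.1% of genes were higher and 11.8% lower. The day 1 library had the lowest free level of Syt1 and Rims1 of the 4 libraries, and the same library had the lowest Rims1 level in glutamatergic-like nuclei.

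The order of the 10 genes in free RNA followed the share of the gene body that is exon. Vamp2 is 3.90 kb long and 97.8% exon, Syp 14.8 kb and 35.2%, and Unc13a 47.3 kb and 26.7%. At the other end Syt1 spans 513 kb with 1.62% exon and Rims1 520 kb with 1.42% exon. The Spearman correlation of the free over glutamatergic-like ratio with the exon share was 0.830, 0.867, 0.830 and 0.855 over the 10 genes. The points share libraries and gene models, exon share and length go together in these genes (the correlation with gene length was -0.782 to -0.855), and 10 genes were chosen for their function, so it is given as a description. Unc13a departed from the order, with a ratio of 0.523 to 0.572 at the third highest exon share. With barcodes of at most 200 UMIs its ratio was 0.775 to 0.858.

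**Figure D3:**
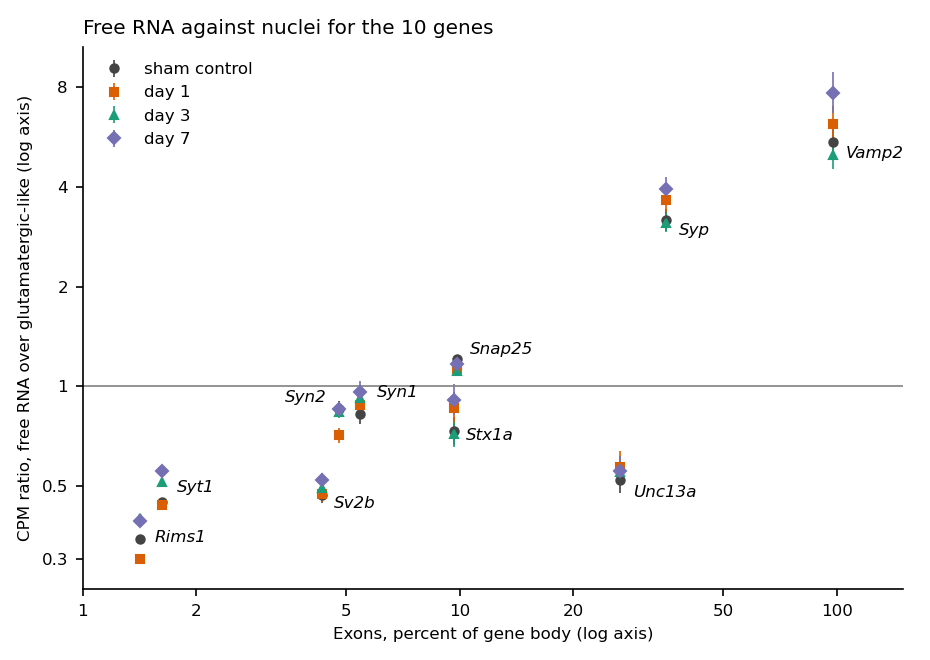
Ratio of the free RNA level to the glutamatergic-like level (log axis) against the exon share of the gene body in percent (log axis) for the 10 genes, in the 4 libraries. Vamp2 and Syp lie at 3.12 to 7.70 and Rims1 and Syt1 at 0.30 to 0.555.

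Between injured and sham brain, none of the 10 genes was called in glutamatergic-like, striatal projection neuron-like or interneuron-like nuclei on any day. The background was small as well. In glutamatergic-like nuclei 5.54% of genes tested were called higher and 3.01% lower on day 1, 2.14% and 3.3% on day 3, and 4.26% and 4.57% on day 7. In striatal projection neuron-like nuclei these were 4.42% and 2.32%, 2.18% and 3.71%, and 2.92% and 3.55%, and in interneuron-like nuclei 3.94% and 3.1%, 2.52% and 3.43%, and 2.83% and 4.83%. A count of 0 of 10 is near what such shares give, so the size of each ratio is more informative than the count. All day comparisons of a class share its sham library.

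In glutamatergic-like nuclei 4 of the 10 genes, Syt1, Rims1, Stx1a and Unc13a, had intervals below 1 on all 3 days, though none passed the fold limit. Of the 13715 genes tested on every day, 3.31% did so, and of the 4336 with at least 1000 UMIs over the 4 libraries, a minimum all 10 genes met, 6.48%. The 3 ratios of a gene share the sham library. Over 13 other settings Stx1a and Unc13a were below 1 on every day, whereas on day 3 Syt1 and Rims1 were above 1 in 2, with TMM factors and with proportional subtraction of free RNA, at up to 1.01 and 1.03. The ratio to sham of Syt1 was 0.819 (0.804 to 0.833) on day 1, 0.966 (0.951 to 0.980) on day 3 and 0.805 (0.791 to 0.819) on day 7. That of Rims1 was 0.849 (0.826 to 0.872), 0.971 (0.949 to 0.994) and 0.878 (0.855 to 0.901). In both genes day 3 was nearest to sham. Stx1a was at 0.806 (0.719 to 0.903), 0.831 (0.753 to 0.917) and 0.806 (0.720 to 0.902), and Unc13a at 0.824 (0.744 to 0.911), 0.877 (0.804 to 0.957) and 0.845 (0.766 to 0.933).

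The vesicle genes did not move together. Sv2b was above sham on each day, at 1.13 (1.07 to 1.19), 1.30 (1.25 to 1.37) and 1.17 (1.11 to 1.23). Syn2 was at 1.20 (1.13 to 1.26) on day 1 and 1.18 (1.11 to 1.24) on day 7 but 0.980 (0.931 to 1.03) on day 3. Syn1 was at 0.930 to 0.965 and Syp at 0.909 to 0.951, all with intervals that included 1. With free RNA subtracted in proportion to UMIs, Syp was at 0.146 on day 3 and called lower. Vamp2 was at 0.919 and 0.895 on days 1 and 3 and at 0.681 (0.570 to 0.812) on day 7, just inside the fold limit, and it was called lower on day 7 once free RNA was subtracted at the median total of barcodes of 100 to 1000 UMIs. Snap25 was at 1.04 (1.01 to 1.08), 0.981 (0.953 to 1.01) and 0.916 (0.885 to 0.947).

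The median log2 ratio of the 10 genes was -0.10, -0.05 and -0.16 in glutamatergic-like nuclei, against 0.03, -0.04 and -0.06 over all genes tested. On day 1 the interval lay below 1 for 4 of the 10 and above for 3 (10.5% and 13.5% of all genes), on day 3 for 4 and 1 (12.7% and 8.41%) and on day 7 for 6 and 2 (15.4% and 10.1%). An interval narrows with the number of UMIs, and Syt1 alone rested on 21120 to 41856 UMIs per library. Day 1 glutamatergic-like nuclei had a median of 16519 UMIs against 8931 to 11041.5 in the other libraries, and its part in these ratios was not tested beyond thinning. Over 13 other settings, thinning among them, the median of the 10 lay between -0.24 and -0.03 on day 1, -0.11 and 0.0018 on day 3, and -0.22 and -0.11 on day 7.

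Syt1 was below sham in 8 of the 9 glutamatergic-like clusters on day 1, 5 on day 3 and 9 on day 7, and Rims1 in 8, 5 and 8. The interval of Syt1 lay below 1 in 7, 4 and 6 clusters and above 1 in 1, 2 and 0, and that of Rims1 below in 8, 4 and 5 and above in 1, 0 and 0. Unc13a was below sham in 7, 8 and 7 clusters, with its interval below 1 in 2 on each day. Sv2b was above sham in 7, 8 and 7 of the 9 clusters, with intervals above 1 in 4, 6 and 3 and below 1 in none. Stx1a was below sham in 6, 6 and 7 clusters, but its interval lay below 1 in only 1, 2 and 0 of them.

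**Figure D4:**
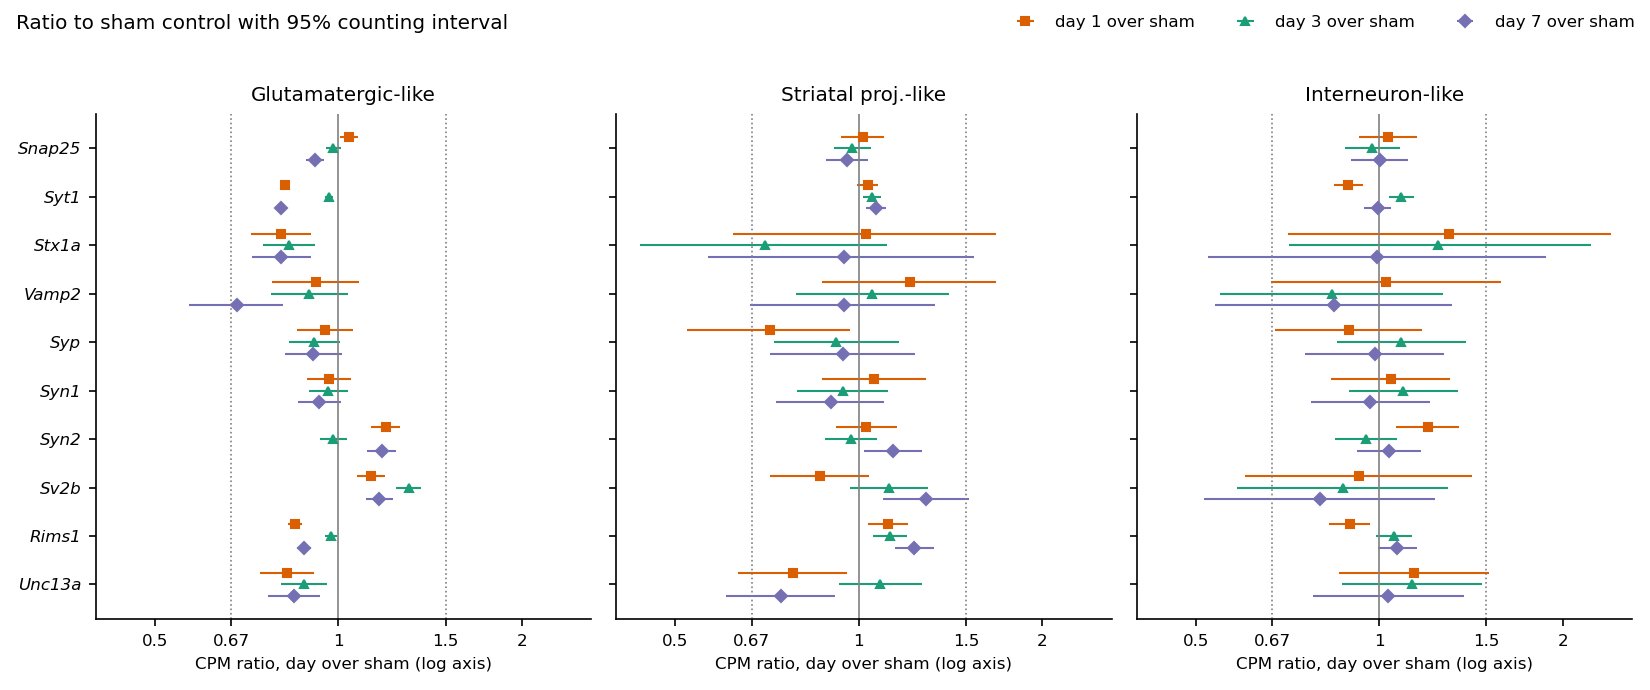
Ratio of day 1, day 3 and day 7 to sham (log axis) for the 10 genes in glutamatergic-like, striatal projection neuron-like and interneuron-like nuclei, with exact 95% counting intervals, and the fold limits of 1.5 either way as lines. No gene passes a limit with an interval that leaves out 1, and Sv2b lies above 1 on all 3 days in glutamatergic-like nuclei.

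In striatal projection neuron-like nuclei Rims1 was above sham throughout, at 1.12 (1.04 to 1.20), 1.13 (1.06 to 1.20) and 1.23 (1.15 to 1.33). This is the opposite direction to glutamatergic-like nuclei, and the difference was not tested. Sv2b was at 0.864 (0.715 to 1.04), 1.12 (0.969 to 1.30) and 1.29 (1.10 to 1.52), Syt1 at 1.03, 1.05 and 1.07, and Syn2 at 1.14 (1.02 to 1.27) on day 7. Unc13a was at 0.779 (0.633 to 0.956) on day 1, 1.08 (0.926 to 1.27) on day 3 and 0.747 (0.606 to 0.915) on day 7, and Syp at 0.714 (0.522 to 0.966) on day 1. Stx1a, from 27 to 47 UMIs per library, could not be resolved, with an interval of 0.438 to 1.11 on day 3. The median log2 ratio of the 10 was 0.04, 0.02 and -0.07, against 0.02, -0.04 and -0.04 over all genes. In this class the summed level of 15 oligodendrocyte markers was 237, 402, 504 and 532 CPM and mitochondrial UMIs were 0.148, 0.194, 0.413 and 0.342% of the total. The part of either in the ratios was not tested.

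In interneuron-like nuclei the interval lay below 1 for 2 genes and above for 1 on day 1 (5.44% and 6.24% of all genes) and above for 1 on day 3 (4.99%). Syt1 was at 0.890 (0.843 to 0.940), 1.09 (1.04 to 1.14) and 0.994 (0.944 to 1.05), and Rims1 at 0.894 (0.826 to 0.967), 1.06 (0.987 to 1.13) and 1.07 (0.995 to 1.15). Syn2 was at 1.20 (1.07 to 1.35) on day 1 and at 0.951 and 1.04 later. On day 7 no member had an interval that left out 1. The median log2 ratio of the 10 was 0.04, 0.10 and -0.01, against 0.02, -0.05 and -0.07 over all genes. Snap25 lay between 0.974 and 1.03, and the intervals of Vamp2, Stx1a and Sv2b, on 44 to 106 UMIs, included 1. Within the class the Sv2b ratio differed between clusters, but on low levels. It was at 24.5 CPM in the Erbb4 cluster on day 1 and at 23.3 CPM in the Vip cluster in sham. Both lay under the 38.0 to 75.0 CPM of oligodendrocyte-like nuclei. In the Erbb4 cluster the ratio was 0.310 (0.133 to 0.646) on day 1 and 0.525 (0.289 to 0.920) on day 3, and in the Vip cluster 3.46 (1.41 to 10.2) and 3.07 (1.22 to 9.23), from 22 to 53 nuclei a library.

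The other genes of vesicle release were taken from lists of 77 genes: paralogs of the 10, regulators of the SNARE complex, active zone scaffolds, vesicle GTPases and gyrins, and endocytosis genes. Of 75 tested in glutamatergic-like nuclei, 1 was called higher and 5 lower on day 1, 2 and 3 on day 3, and 4 and 4 on day 7. These are 1.33% and 6.67%, 2.67% and 4%, and 5.33% and 5.33% of the list, beside 5.54% and 3.01%, 2.14% and 3.3%, and 4.26% and 4.57% of all genes. In striatal projection neuron-like nuclei (71 tested) the counts were 2 and 4, 0 and 3, and 0 and 4, and in interneuron-like nuclei (68 to 69 tested) 2 and 3, 5 and 1, and 1 and 2. The list shares were 2.82% and 5.63%, 0% and 4.23%, and 0% and 5.63% in the former, beside 4.42% and 2.32%, 2.18% and 3.71%, and 2.92% and 3.55% of all genes. In the latter they were 2.94% and 4.41%, 7.25% and 1.45%, and 1.47% and 2.94%, beside 3.94% and 3.1%, 2.52% and 3.43%, and 2.83% and 4.83%. The median log2 ratio of those tested was -0.04, -0.04 and -0.07 in glutamatergic-like nuclei, against 0.03, -0.04 and -0.06 over all genes. By list, 29 paralogs gave 1 higher and 3 lower there on day 1, 2 and 2 on day 3, and 3 and 3 on day 7, and 17 SNARE regulators gave 0 and 1, 0 and 0, and 1 and 1. Of 8 vesicle GTPases and gyrins 1 was lower on day 1 and 1 on day 3, and of 11 endocytosis genes, such as Dnm1, none was called. All 10 active zone scaffold genes, such as Bsn and Pclo, were tested in every comparison and none was called. Their median log2 ratio in glutamatergic-like nuclei was 0.05, 0.06 and -0.0042 at day 1, day 3 and day 7.

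Several paralogs of the members were called. Unc13c, the relative of Unc13a best known from cerebellum, was at 92.3, 30.9, 60.1 and 46.5 CPM in glutamatergic-like nuclei, for ratios of 0.335 (0.281 to 0.397), 0.651 (0.579 to 0.732) and 0.504 (0.435 to 0.583). It was called lower on day 1 in striatal projection neuron-like nuclei, at 0.649, and higher in interneuron-like nuclei on day 3, at 2.46 (1.86 to 3.29), and day 7, at 2.19 (1.63 to 2.97). Syn3, the synapsin beside Syn1 and Syn2, was at 139, 221, 191 and 264 CPM in glutamatergic-like nuclei and was called higher on day 1, at 1.60 (1.46 to 1.74), and day 7, at 1.91 (1.76 to 2.07). Both kept these directions with the clusters of the class weighted equally, at 0.441 and 0.627 for Unc13c and 1.39 and 1.59 for Syn3 on days 1 and 7, where Syn3 on day 1 was then below the fold limit. Synpr, a relative of Syp, was called higher in interneuron-like nuclei on day 3, at 1.64 (1.44 to 1.86), and in glutamatergic-like nuclei on day 3, at 1.54, and day 7, at 2.00, but its glutamatergic-like day 7 ratio was 1.34 and its day 3 ratio 1.42 without the Zbtb20 cluster. With clusters weighted equally these ratios were 1.76 and 1.42, so that day 7 alone passed the fold limit. All its glutamatergic-like levels, 56.6 to 113 CPM, lay under the 143 to 353 CPM of Synpr in oligodendrocyte-like nuclei.

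Among the calcium sensors, Syt9 was at 0.488 (0.342 to 0.688) in glutamatergic-like nuclei on day 1, Syt17 at 1.65 (1.42 to 1.93) on day 3 and Syt2 at 0.580 on day 3. Syt2 was also called lower on day 3 in striatal projection neuron-like nuclei, at 0.571, and in interneuron-like nuclei, at 0.590. With clusters weighted equally it was at 0.729 in glutamatergic-like and 0.776 in interneuron-like nuclei, short of the fold limit in both. Syt6 was at 2.13 (1.24 to 3.79) in interneuron-like nuclei on day 3. Of the regulators, Cadps2, which primes dense-core vesicles, was at 590.2 CPM in sham and 339 CPM on day 7 in glutamatergic-like nuclei, a ratio of 0.575, which came to 0.786 with clusters weighted equally. In striatal projection neuron-like nuclei it was at 3.25 (2.22 to 4.83) on day 1 and 0.344 on day 7, from 43, 81 and 9 UMIs in sham, day 1 and day 7. The synuclein Sncb was at 0.554 on day 1 in the same class, from 17 UMIs.

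Vamp1, a paralog of Vamp2, was at 0.323 on day 3 and 0.398 on day 7 in striatal projection neuron-like nuclei, from 33 UMIs in sham and 8 to 11 later, and at 2.67 (1.35 to 5.60) in interneuron-like nuclei on day 1. Rab3b, a vesicle GTPase, was at 0.585 and Bin1, an endocytosis gene, at 1.57 in striatal projection neuron-like nuclei on day 1. In interneuron-like nuclei the fission GTPase Dnm1 was at 0.640 on day 1 and 0.660 on day 7, and Sv2c at 1.65 on day 1. With clusters weighted equally Dnm1 was at 0.726 on day 1 and 0.646 on day 7 and Sv2c at 1.30, so that the day 1 ratios of both fell short of the fold limit. Syngr3 was at 0.639 in glutamatergic-like nuclei on day 3.

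The abundant paralogs of the members in neurons showed class patterns of their own. Rims2 was highest in Slc17a6 neurons, at 2093, 1859, 2038 and 1919 CPM, above the 867 to 1057 CPM of all other neuron classes, while Rims1 was highest in glutamatergic-like and Slc17a6 nuclei. Unc13c was highest in striatal projection neuron-like nuclei, at 532, 345, 601 and 491 CPM, where Unc13a was at 94.1 to 137 CPM. Synpr was highest in interneuron-like nuclei, at 361, 358, 589.9 and 481 CPM. Syt16, at 275 to 296 CPM, was highest in glutamatergic-like nuclei like Syt1. Sv2a was at 71.3 to 77.7 CPM in glutamatergic-like nuclei, under the 87.2 to 143 CPM of interneuron-like, Baiap3 and Slc17a6 neurons, whereas Sv2b was highest in glutamatergic-like nuclei. Oligodendrocyte-like nuclei held 1.30 to 1.81 times the glutamatergic-like level of Sv2a and free RNA 3.38 to 4.58 times. The part of free RNA in this class pattern was not tested. Snap47 and Vamp4 lay between 37.7 and 94.4 CPM in all neuron classes, around the 45.0 to 87.5 CPM of oligodendrocyte-like nuclei.

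Members that overlap other genes carry a limit on their counts, since the strand setting of the counting is not stated. Syn1 overlaps Araf and Timp1 on the other strand, Syn2 overlaps Timp4, and Unc13a overlaps Colgalt1. The Timp genes encode inhibitors of matrix proteases. Timp1 was at 16, 7, 31 and 5 UMIs in glutamatergic-like nuclei, against 1270 UMIs of Syn1 in sham. Timp4 was at 45.6, 56.2, 29.5 and 66.6 CPM and Syn2 at 391, 468, 383 and 461 CPM, and both were lowest on day 3. Timp3, within Syn3, was at 28.7, 47.5, 28.7 and 50.3 CPM while Syn3 was at 139, 221, 191 and 264 CPM. Whether reads of one gene were counted for the other was not tested.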

How the data were processed

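Nuclei were profiled with 10x 3' chemistry, and the authors aligned reads with STARsolo (STAR 2.7.3a) to GRCm38 with GENCODE annotation, counting exonic and intronic reads and collapsing UMIs within 1 mismatch. For a UMI seen with several genes, assignments with fewer reads were removed. The strand setting is not given in the sources used here. The deposited values are raw UMI counts for 46983 genes and all 6794880 listed barcodes, with no barcode filter and no removal of free RNA. Gene coordinates and exon shares came from the mouse annotation of the same build.

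From these counts, barcodes over 1000 UMIs were compared with the free RNA profile by the EmptyDrops method, written anew here (10000 draws, false discovery rate 0.001). Doublets were removed by Scrublet score, 0.8% per 1000 nuclei, because its own threshold marked 243, 11, 0 and 1 nuclei in sham, day 1, day 3 and day 7. This removed 37, 8, 81 and 20. Clusters were built with Seurat 5.3.0 and sctransform 0.4.2 in R 4.3.3 (2983 of 3000 selected features, 30 components, resolution 0.8), with the 10 genes and the other vesicle genes left out. Clusters were named from listed markers by a rule set after the clusters were seen, and 9 of 33 (859 of 7802 nuclei) stayed unnamed.

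UMIs were summed per class and library and given as CPM (counts scaled to the class total). Intervals were exact (Poisson for levels, conditional binomial for ratios, Clopper-Pearson for shares of nuclei) at the 95% level and cover counting error only. Background genes needed at least 20 UMIs summed over the 2 sums compared, and for class comparisons in each of the 4 libraries. All members passed these minimums. No test across samples was possible with 1 library per group. Members, gene lists and alternatives were chosen with earlier results of these data known. The genes named were the members, the most abundant paralog of each, up to 2 highest and 2 lowest called ratios of other vesicle genes per class and day, and Timp genes within synapsin genes. Some genes that this rule names are not reported here. Araf, Colgalt1, Bsn and Pclo were named after values were seen. Rab27b, Doc2b, Rims3 and other calls outside that rule enter the counts only. Alternatives were other scalings (edgeR 4.0.16 TMM factors), depths, free RNA subtractions, clusterings, doublet shares, minimums and call rules. The computations were tested on simulated counts.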

Additional observations from a re-analysis of the deposited data

How the results depend on the processing

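No paired analysis was possible because each group holds 1 library, so for the days no replicate could be left out in turn. The class comparisons are ratios within a library, and leaving out each library in turn, chosen after the data were seen, can only add calls, since a call needs every library kept. It added Vamp2 as higher in oligodendrocyte-like nuclei without sham, Syt1 as lower in Baiap3 neurons without day 7, and Syn1 as higher in interneuron-like over striatal projection neuron-like nuclei without day 1. The members called came to 6 in striatal projection neuron-like, 3 in interneuron-like, 3 to 4 in Baiap3, 2 in Slc17a6 neurons and 9 to 10 in oligodendrocyte-like nuclei against glutamatergic-like nuclei, and 4 to 5 in interneuron-like over striatal projection neuron-like nuclei. The count of members called after injury was 0 in every class and day, and it became 1 under these settings. In glutamatergic-like nuclei it was 1 on day 3 with free RNA subtracted in proportion to UMIs (Syp) and 1 on day 7 with the free RNA subtraction added after the data were seen (Vamp2). In striatal projection neuron-like nuclei it was 1 on day 1 as a mean over nuclei (Syp) and 1 on day 3 with libraries merged or at resolution 0.4 (Stx1a in both). In interneuron-like nuclei it was 1 on days 1 and 3 with libraries merged (Sv2b), and 1 on day 3 with thinning (Vamp2) or as a mean over nuclei (Stx1a). The causes were not tested. The median of the 10 genes moved past its counting interval in 1 of 108 checks, to 0.19 on the log2 scale on day 1 in striatal projection neuron-like nuclei with thinning. The median log2 ratio of free RNA to glutamatergic-like nuclei came to -0.24 on day 1 and -0.14 on day 3 with barcodes of at most 200 UMIs, from -0.35 and -0.37. Of 1067 single ratios under other settings, 954 stayed within the interval of the value reported and 75 changed sign. With the fold of 1.5 alone, all genes called came to 2034, 1630 and 2074 in glutamatergic-like nuclei (reported rule 1203, 793 and 1236), 1754, 1561 and 1768 in striatal projection neuron-like nuclei (729, 667 and 698) and 1791, 1682 and 1835 in interneuron-like nuclei (659, 578 and 715), and in the last class a minimum of 50 UMIs gave 438, 375 and 458. In proportional subtraction Vamp2, and in striatal projection neuron-like nuclei Syp or Stx1a too, fell to the floor of 3 UMIs and left the median. The settings with equal clusters and without the Zbtb20 cluster were also chosen after the data were seen. Depth limits Stx1a and Vamp2 outside glutamatergic-like nuclei and Sv2b in interneuron-like nuclei.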
